A study of Mus musculus with 45 samples.

Results

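The 10 genes described are core members of the circadian clock and its first outputs: Nr1d1, Nr1d2, Per2, Per3, Ciart, Dbp, Tef, Arntl, Npas2 and Cry1. They were taken by symbol from 19494 genes with a symbol on the microarrays, with earlier results of these data known, and each was read by 1 probe. Whole ileum, the last segment of the small intestine, was measured in 45 mice, 1 array per mouse and 5 mice in each of 9 groups. The study deleted FADD, the adaptor of death receptors, or its partner protease CASP8 in intestinal epithelial cells (IEC-KO), alone or with loss of MLKL, RIPK3 or ZBP1, proteins of the necroptosis pathway. All mice were about 11 weeks old, kept free of specific pathogens on chow under a 12 h light cycle. The labels give neither the time of day at which the ileum was taken nor the sex.

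The groups were Fadd fl/fl and Casp8 fl/fl, which carry floxed alleles without deletion, FADD IEC-KO and CASP8 IEC-KO with the epithelial deletion alone, and 5 combinations. Of these, 3 combine the FADD deletion with a second loss (FADD IEC-KO Mlkl-/-, its Zbp1-/- counterpart FADD IEC-KO Zbp1-/-, and the mice with both epithelial deletions, FADD IEC-KO RIPK3 IEC-KO), another is CASP8 IEC-KO Mlkl-/-, and the last is named FADD IEC-KO CASP8 IEC-KO Mlkl-/-, called triple mutants below. Mlkl-/- and Zbp1-/- are losses in every cell of the animal, whereas the IEC-KO alleles are deleted in the epithelium only, so other ileal cells keep those genes; what drives the deletion is not stated by the labels. The genotype field of the triple mutants gave only CASP8 IEC-KO Mlkl-/-, and their titles were followed.

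The clock is a loop of transcription that runs in nearly every cell of the body, the gut epithelium included. ARNTL (BMAL1) pairs with CLOCK or with NPAS2, binds E-box sequences and switches on the Per, Cry, Nr1d, Dbp, Tef and Ciart genes; PER and CRY proteins and CIART then act against ARNTL, and the NR1D1 and NR1D2 repressors (REV-ERBα and REV-ERBβ) silence Arntl, Npas2 and Cry1 through ROR elements. DBP and TEF are activators that bind D-box sequences. In mouse peripheral tissues the transcripts of Nr1d1, Nr1d2, Dbp, Tef, Per2, Per3 and Ciart therefore peak from day to dusk (here called the day arm, 7 genes), and those of Arntl, Npas2 and Cry1 late in the night (the night arm, 3 genes). Feeding time, light and the hour of death all move these levels.

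RefSeq promoters of build GRCm38.p6 were found for 9 of the 10 genes, with 11 start sites. The 250 bases before each start were searched on both strands for the E-box CACGTG, its variant CACGTT and the D-box TTANGTAA. They were also searched for TNGGTCA, a loose form of the ROR element in which any base may stand second. The 4 genes below are shown because each holds 2 or 3 matches before its first start and together they hold all 4 motifs; matches stand in capitals, as read on the gene's strand.
Ciart: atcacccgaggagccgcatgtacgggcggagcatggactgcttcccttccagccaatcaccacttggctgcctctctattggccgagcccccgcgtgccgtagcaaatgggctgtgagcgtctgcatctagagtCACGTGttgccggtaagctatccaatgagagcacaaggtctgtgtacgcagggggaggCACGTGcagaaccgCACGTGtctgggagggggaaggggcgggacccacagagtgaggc
Per3: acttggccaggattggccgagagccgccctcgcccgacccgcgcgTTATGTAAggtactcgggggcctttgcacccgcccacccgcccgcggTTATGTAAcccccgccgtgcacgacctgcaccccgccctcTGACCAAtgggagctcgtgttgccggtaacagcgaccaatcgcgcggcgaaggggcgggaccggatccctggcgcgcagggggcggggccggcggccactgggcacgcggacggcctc
Arntl: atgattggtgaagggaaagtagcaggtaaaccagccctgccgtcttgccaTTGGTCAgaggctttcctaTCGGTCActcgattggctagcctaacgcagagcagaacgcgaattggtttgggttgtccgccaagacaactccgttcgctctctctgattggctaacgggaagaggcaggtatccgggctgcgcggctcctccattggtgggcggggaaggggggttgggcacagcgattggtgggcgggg
Cry1: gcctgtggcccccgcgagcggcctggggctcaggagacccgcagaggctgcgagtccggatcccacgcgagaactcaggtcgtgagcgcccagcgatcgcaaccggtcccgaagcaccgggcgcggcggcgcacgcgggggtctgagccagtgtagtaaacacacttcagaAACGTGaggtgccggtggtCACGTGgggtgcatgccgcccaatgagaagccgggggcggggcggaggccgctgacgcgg
Ciart (chr3:95882229-95882478, minus strand) held 3 E-boxes, which began 116, 58 and 44 bases before the start; of 32851 promoter windows of the same length, 6.02% held an E-box and 0.0609% held 3 or more. Per3 (chr4:151044666-151044915, minus strand) held 2 D-boxes, at 205 and 158 bases, and a match to TNGGTCA on the other strand at 118 bases. A D-box was present in 2.06% of windows and 2 or more in 0.183%. Arntl (chr7:113207215-113207464, plus strand, the first of its 2 starts) held 2 ROR elements, at 200 and 181 bases; 9.19% of windows held this element and 0.557% held 2 or more. Cry1 (chr10:85185055-85185304, minus strand) held an E-box at 60 bases and the variant, on the other strand, at 79 bases. The variant was in 3.85% of windows. Tef held an E-box before each of its 2 starts, at 127 and 138 bases. Before the second it also held a match to TNGGTCA on the other strand at 219 bases. Nr1d1 held the variant at 28 bases, while Dbp, Nr1d2 and Npas2 had none of these letters in the window. All matches to TNGGTCA in these genes had T or C as second base, and whether they work as ROR elements was not tested. A match describes the sequence only.

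The values are log2 intensities that the authors normalized. Array medians lay between 6.36 and 6.44, no 2 arrays were identical, and all ileal samples had high Fabp6 and Slc10a2, the ileal bile acid carriers. As a check of the labels, Fadd fell from 7.53 ± 0.06 (SD, n = 5) in Fadd fl/fl to 6.45 ± 0.52 in FADD IEC-KO and was 6.05 ± 0.44 in the triple mutants. Casp8 was 11.35 ± 0.09 in Casp8 fl/fl. With the epithelial deletion of CASP8 alone it was 10.23 ± 0.51, with the added loss of MLKL 9.84 ± 0.21, and it was 9.55 ± 0.09 for the triple mutants. Mlkl was 7.14 ± 0.19 in the triple mutants, against 8.62 ± 0.21 in Casp8 fl/fl and 8.66 ± 0.35 in Fadd fl/fl. In FADD IEC-KO Mlkl-/- it was 8.05 ± 0.22, lower by limma than in FADD IEC-KO (9.14 ± 0.41, adjusted p = 5.17e-04) and than in Fadd fl/fl (adjusted p = 0.0360). In CASP8 IEC-KO Mlkl-/- the 5 values were 8.21, 8.59, 8.52, 8.18 and 8.66. They overlapped those of Casp8 fl/fl, which ran from 8.43 to 8.98 (difference -0.19 ± 0.195, adjusted p = 0.769), and those of CASP8 IEC-KO, which ran from 8.54 to 9.18 (-0.56 ± 0.195, adjusted p = 0.132). The Mlkl probe was thus lower in the other groups named Mlkl-/- but did not separate this one from its controls, so the loss of MLKL in these 5 mice rests on the label alone, and they are called the mice labelled CASP8 IEC-KO Mlkl-/-. Titles carried numbers, under 100 in some mice and 200 or over in others, whose meaning is not stated; these series were treated as a possible batch.

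The clock genes varied widely between mice of the same genotype. Dbp, the most variable, spanned 6.48 to 11.28 over the 45 mice, a 27.7-fold range in intensity. In Fadd fl/fl mice its 5 values were 11.28, 9.49, 8.58, 7.68 and 10.44, and in Casp8 fl/fl 7.85, 10.32, 10.74, 8.16 and 10.59. Undeleted controls of either floxed line covered most of the range found in all mice. Nr1d1 spanned 12.5-fold, Per3 11.9-fold, Nr1d2 7.69-fold, Ciart 7.23-fold and Arntl 5.26-fold. Per2 (4.49-fold), Npas2 (3.91-fold), Cry1 (2.92-fold) and Tef (2.78-fold) moved less. The share of each gene's variance that lay within groups ran from 42.7% for Nr1d1 and 43.8% for Cry1 to 72.8% for Per2. With 9 groups of 5 mice, most variance would lie within groups if genotype had no effect, and these shares were not tested. Because the ileum was measured whole, fewer cells that express a gene and less RNA per cell cannot be told apart.

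**Figure D1:**
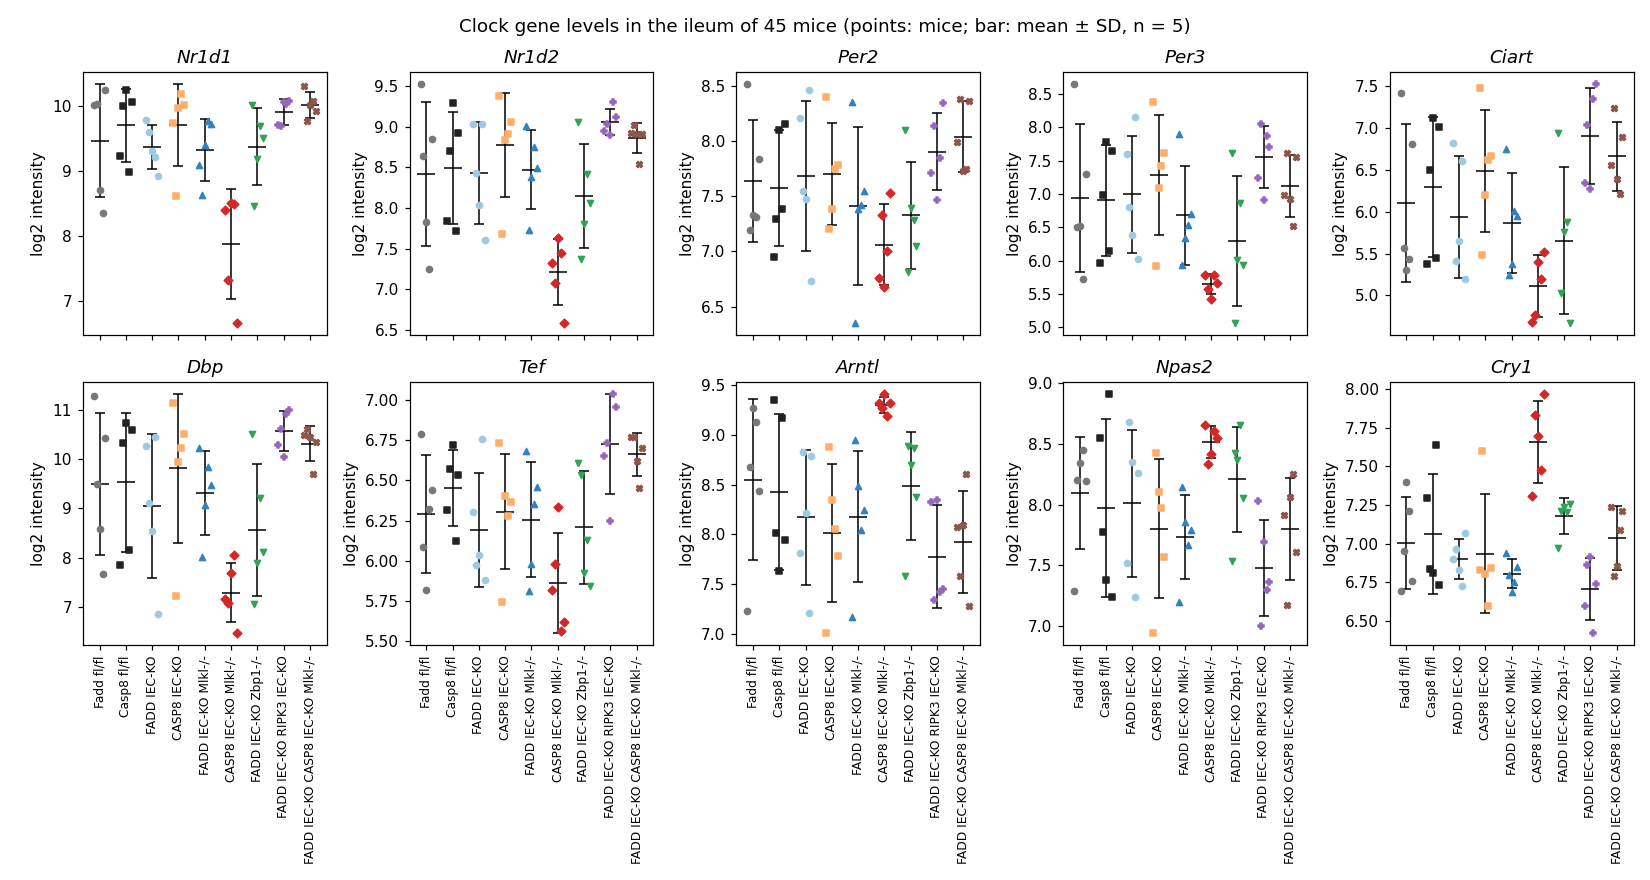
Log2 intensity of each of the 10 clock genes (vertical axes, own scale per gene) in the 9 genotype groups (horizontal axis); points are mice and bars the mean ± SD of 5 mice. The 2 floxed control groups spread widely, and the mice labelled CASP8 IEC-KO Mlkl-/- (red diamonds) lie at the low end for Nr1d1, Nr1d2, Per3 and Dbp and at the high end for Arntl and Cry1.

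Within genotypes the genes moved as the 2 arms of the loop. With each group's mean removed, Pearson's r over the 45 mice was positive in all 24 pairs of genes from the same arm (median 0.75, range 0.29 to 0.97) and negative in all 21 pairs from opposite arms (median -0.74, range -0.90 to -0.31). The points share the group means that were removed and come from 1 deposited table, so these correlations are a description without a test. Dbp and Nr1d2, both direct E-box targets, correlated most closely (r = 0.97), followed by the partners Arntl and Npas2 (r = 0.92), by Dbp with Per3 (r = 0.91) and by Per3 with Ciart (r = 0.90). Arntl and Per3 gave the most negative value (r = -0.90). In the 10 floxed mice alone the medians were 0.88 and -0.87. The weakest pair within an arm was Nr1d1 with Per2 (r = 0.29), although each followed Nr1d2 (r = 0.81 and 0.71).

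**Figure D2:**
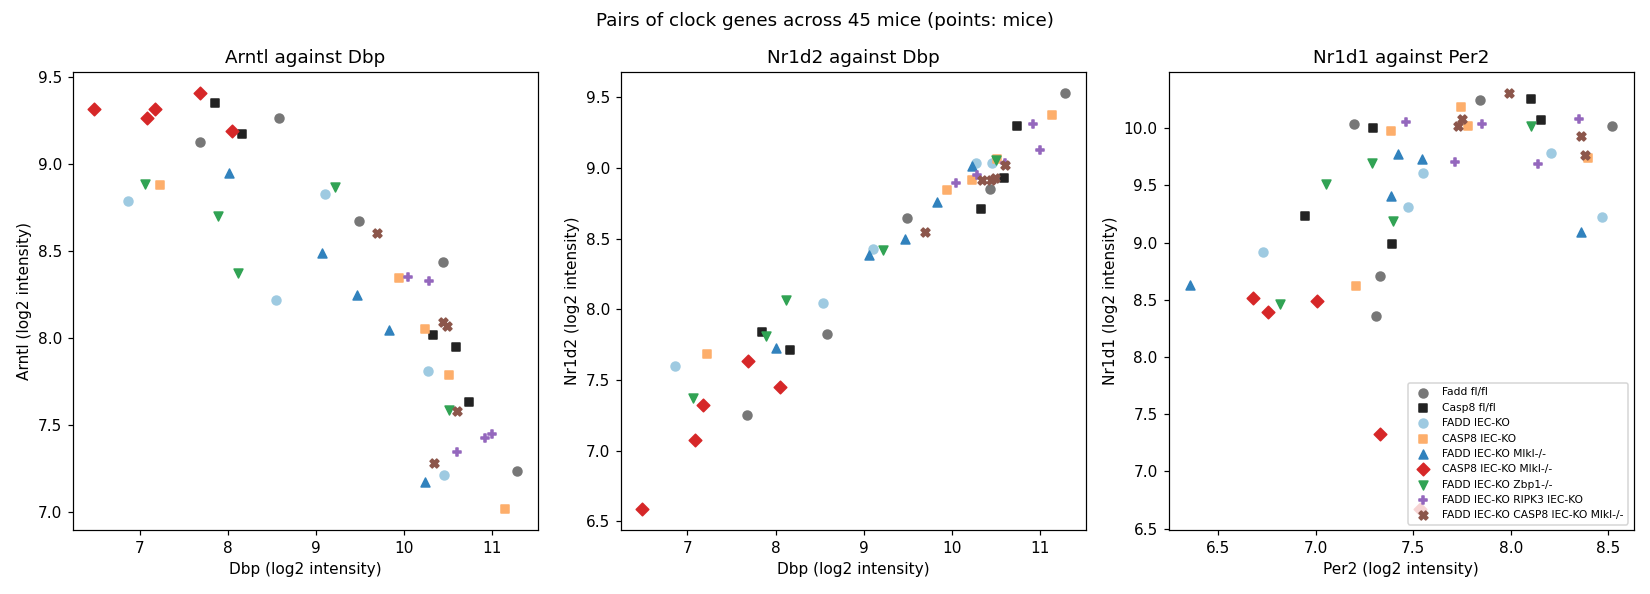
Log2 intensities of 3 pairs of clock genes in 45 mice (points, coloured by genotype): Arntl against Dbp, Nr1d2 against Dbp, and Nr1d1 against Per2. Arntl was lower and Nr1d2 higher in mice with more Dbp, whereas Nr1d1 and Per2 were loosely related. The lowest Nr1d1 values, 6.67 and 7.32, belonged to mice labelled CASP8 IEC-KO Mlkl-/-.

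A principal component analysis of the same values put 83.4% of the variance on 1 axis, with genes not scaled to equal spread. Along this axis the 7 day-arm genes had positive weights and Arntl, Npas2 and Cry1 negative ones. The most variable gene, Dbp, had the largest weight (0.60), and Cry1 the smallest in size (-0.09). The next axis held 9.10%. On it Nr1d1 (weight 0.65), Dbp (0.33), Arntl (0.30) and Npas2 (0.28) stood against Per2 (-0.35), Ciart (-0.26) and Per3 (-0.19). A clock index was then computed for each mouse as the mean of the 7 centred day-arm genes minus the mean of the 3 centred night-arm genes, in log2 units. It is high where day-arm transcripts are high. Set against the index of the other 9 genes, Per3 (r = 0.94), Nr1d2 (0.93), Dbp (0.93) and Arntl (-0.92) followed it most closely, and Cry1 (-0.61) and Nr1d1 (0.59) least.

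Index values of control mice were spread widely. In Fadd fl/fl they were 1.86, -0.25, -1.13, -1.35 and 0.53, and in Casp8 fl/fl -1.28, 0.56, 1.35, -1.39 and 1.16. In CASP8 IEC-KO they were 1.87, -1.41, 0.27, 0.71 and 0.94; the first and the second of these mice, whose title numbers are 46 and 47, were the highest and the lowest of their group. FADD IEC-KO mice had 0.93, -0.55, -0.40, 1.37 and -1.25. These 4 groups overlapped throughout.

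Among the combined genotypes the spread was smaller in some groups. FADD IEC-KO RIPK3 IEC-KO mice had index values of 0.52, 1.45, 0.38, 1.62 and 1.54, and triple mutants 0.60, 1.35, 0.53, -0.04 and 1.06. FADD IEC-KO Mlkl-/- mice had 1.23, -1.10, -0.21, 0.37 and 0.18, and FADD IEC-KO Zbp1-/- mice 1.09, -1.51, -0.92, -0.56 and -0.82. In mice labelled CASP8 IEC-KO Mlkl-/- the values were -1.82, -1.98, -1.65, -1.59 and -2.27. All 5 lay below each of the other 40 mice, whose lowest value was -1.51. No single gene of the 10 set them apart in this way. For Nr1d1, Per3 and Arntl 2 of the 40 lay inside or beyond their range, and for Per2 18 did. The SD of the index was 0.28 in mice labelled CASP8 IEC-KO Mlkl-/-, against 0.53 to 1.32 in the other groups, and 4 of these 5 mice came from the series under 100. Not every gene was as uniform in them. Their SD was 0.84 for Nr1d1, where the groups ran from 0.20 to 0.87, and 0.60 for Dbp, against 0.36 in the triple mutants.

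**Figure D3:**
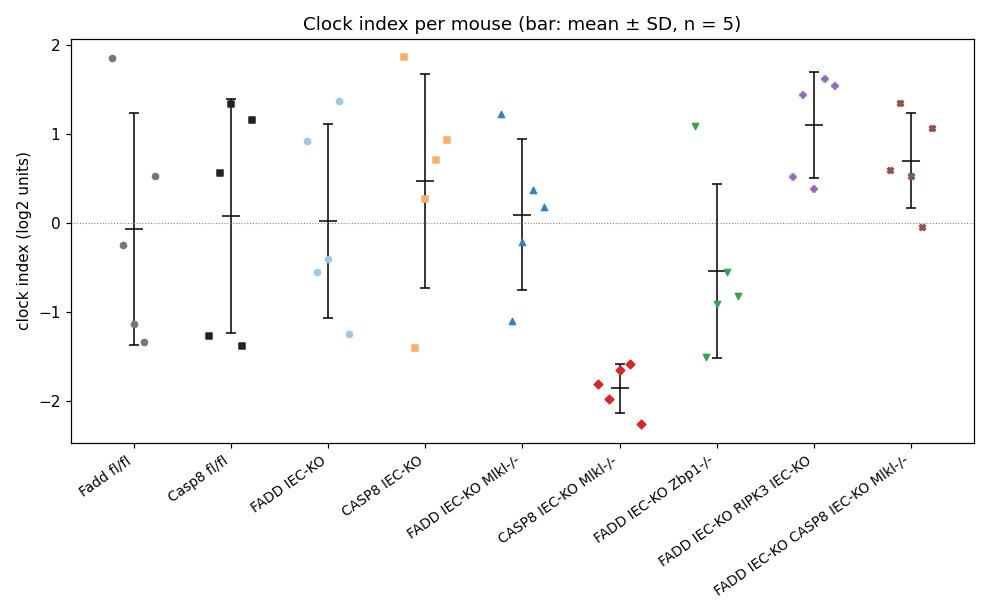
Clock index in log2 units (vertical axis) of the 45 mice by genotype (horizontal axis), with points as mice and bars as mean ± SD of 5 mice. The mice labelled CASP8 IEC-KO Mlkl-/-, from -2.27 to -1.59, sit below all others, while Fadd fl/fl mice run from -1.35 to 1.86 and Casp8 fl/fl mice from -1.39 to 1.35.

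In order of the mean index, FADD IEC-KO RIPK3 IEC-KO (1.10 ± 0.60, SD, n = 5) came first, followed by triple mutants (0.70 ± 0.53), CASP8 IEC-KO (0.47 ± 1.20), FADD IEC-KO Mlkl-/- (0.09 ± 0.85), Casp8 fl/fl (0.08 ± 1.32), FADD IEC-KO (0.02 ± 1.09), Fadd fl/fl (-0.07 ± 1.31), FADD IEC-KO Zbp1-/- (-0.54 ± 0.98) and mice labelled CASP8 IEC-KO Mlkl-/- (-1.86 ± 0.28). Of the 8 steps between neighbours only the last exceeded the pooled SD of its 2 groups and left them without overlap. For single genes 0 to 2 of the 8 steps exceeded the pooled SD. Neighbours without overlap occurred only next to mice labelled CASP8 IEC-KO Mlkl-/-, for Nr1d1 and for Cry1.

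The repressor Nr1d1 had its lowest group mean in mice labelled CASP8 IEC-KO Mlkl-/-, with values of 8.40, 7.32, 8.52, 8.49 and 6.67. CASP8 IEC-KO mice had 9.74, 8.62, 9.98, 10.18 and 10.02. In Casp8 fl/fl they were 9.23, 10.01, 10.25, 8.99 and 10.07. The first group overlapped neither of the others. Nr1d1 fell by 1.83 ± 0.34 (log2 fold change ± SE, 5 mice per group) against CASP8 IEC-KO, a 3.55-fold lower intensity with adjusted p = 5.64e-04 in limma, and by 1.83 ± 0.34 against Casp8 fl/fl (adjusted p = 9.29e-04). Its group mean was 9.33 to 10.02 in the other 8 groups. A Fadd fl/fl mouse, at 8.36, and a FADD IEC-KO Zbp1-/- mouse, at 8.47, lay within the range of mice labelled CASP8 IEC-KO Mlkl-/-.

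Its paralogue Nr1d2 had values of 7.32, 7.07, 7.64, 7.45 and 6.59 in mice labelled CASP8 IEC-KO Mlkl-/- and of 9.38, 7.69, 8.84, 8.91 and 9.06 in CASP8 IEC-KO. The 2 groups did not overlap, though the highest of the former and the lowest of the latter lay close together. Nr1d2 fell by 1.56 ± 0.34 (adjusted p = 0.00414). Against Casp8 fl/fl, whose values were 7.84, 8.71, 9.29, 7.71 and 8.93, the difference of -1.28 ± 0.34 missed the threshold at an adjusted p of 0.05003.

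Dbp, the D-box activator, read 7.17, 7.08, 7.68, 8.05 and 6.48 in mice labelled CASP8 IEC-KO Mlkl-/-, and 11.14, 7.23, 9.94, 10.23 and 10.51 in CASP8 IEC-KO. Replicate 2 of CASP8 IEC-KO lay among the mice labelled CASP8 IEC-KO Mlkl-/-. Dbp fell by 2.51 ± 0.67, a 5.71-fold lower intensity (adjusted p = 0.0269). Against Casp8 fl/fl the difference was -2.24 ± 0.67 (adjusted p = 0.100), with 2 floxed mice, at 7.85 and 8.16, inside or close to the range of mice labelled CASP8 IEC-KO Mlkl-/-. Tef, the other D-box activator, did not pass in either comparison (-0.44 ± 0.19 and -0.59 ± 0.19, adjusted p = 0.287 and 0.148).

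Per3, a period gene, was uniform in mice labelled CASP8 IEC-KO Mlkl-/- at 5.78, 5.58, 5.42, 5.78 and 5.66 and was 8.38, 5.92, 7.09, 7.42 and 7.61 in CASP8 IEC-KO. It fell by 1.64 ± 0.46 (adjusted p = 0.0391), without overlap. Against Casp8 fl/fl it did not overlap either, but the difference of -1.26 ± 0.46 did not pass (adjusted p = 0.230). Per2 and Ciart did not pass against CASP8 IEC-KO, at -0.64 ± 0.31 (adjusted p = 0.363) and -1.38 ± 0.42 (adjusted p = 0.0643), nor against Casp8 fl/fl, at -0.52 ± 0.31 (0.534) and -1.18 ± 0.42 (0.204). Per2 values of mice labelled CASP8 IEC-KO Mlkl-/- were 6.76, 7.33, 6.68, 7.01 and 7.53. The mice highest in Per2, replicates 5 and 2, were also the lowest in Nr1d1 and the highest in Cry1.

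On the night arm, Arntl read 9.32, 9.27, 9.41, 9.19 and 9.31 in mice labelled CASP8 IEC-KO Mlkl-/- and 7.01, 8.88, 8.34, 8.05 and 7.79 in CASP8 IEC-KO. It rose by 1.28 ± 0.37, a 2.44-fold higher intensity (adjusted p = 0.0464), without overlap. Casp8 fl/fl mice had Arntl values of 9.35, 8.02, 7.63, 9.17 and 7.95, so that 1 control lay inside the range of mice labelled CASP8 IEC-KO Mlkl-/- and another just under it. The difference there was 0.88 ± 0.37 (adjusted p = 0.321).

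Cry1, the cryptochrome repressor, was 7.31, 7.83, 7.70, 7.48 and 7.97 in mice labelled CASP8 IEC-KO Mlkl-/-. In CASP8 IEC-KO it was 6.83, 7.60, 6.81, 6.59 and 6.84, with replicate 2 overlapping. Cry1 rose by 0.72 ± 0.16 against CASP8 IEC-KO (adjusted p = 0.00358) and by 0.59 ± 0.16 against Casp8 fl/fl (adjusted p = 0.0452). Fitted with only the groups compared, Cry1 passed in neither (adjusted p = 0.0619 and 0.186). Npas2, the partner of Arntl, did not pass in either comparison (0.71 ± 0.29 and 0.54 ± 0.29, adjusted p = 0.239 and 0.470).

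Counted together, 6 of the 10 clock genes were called between mice labelled CASP8 IEC-KO Mlkl-/- and CASP8 IEC-KO, 2 higher and 4 lower, where 2.78% of all genes were called, 1.59% higher and 1.19% lower; 4 of the 10 did not overlap, as did 4.20% of all genes. Their median absolute log2 fold change was 1.33, beside 0.10 over all genes. Against Casp8 fl/fl 2 of the 10 were called, 1 higher and 1 lower (1.09% of all genes, 0.775% higher and 0.313% lower), and 3 did not overlap (3.51%). Left out in turn, CASP8 IEC-KO replicates 1, 3, 4 or 5, or CASP8 IEC-KO Mlkl-/- replicates 1, 2 or 5, each brought the first count to 3, with Nr1d1, Nr1d2 and Cry1 called in each of these 7 fits and Dbp, Per3 and Arntl lost. It was 4 without CASP8 IEC-KO Mlkl-/- replicate 3 or 4, where Dbp also kept its call, and 7 without CASP8 IEC-KO replicate 2. For the second count, 4 were called without Casp8 fl/fl replicate 1, and only Nr1d1 without Casp8 fl/fl replicate 2, 3 or 5 or CASP8 IEC-KO Mlkl-/- replicate 2, 3, 4 or 5.

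Within the title series the differences between mice labelled CASP8 IEC-KO Mlkl-/- and CASP8 IEC-KO had the same signs. Among mice numbered under 100 (4 against 3) they were -1.94 for Dbp, -1.26 for Nr1d1, -1.49 for Per3, 1.22 for Arntl and 0.50 for Cry1. Among those numbered 200 and over (1 against 2) they were -3.89, -3.43, -1.85, 1.40 and 1.25. The last comparison has a single mouse on one side. Under 100, the title numbers ran from 36 to 40 in mice labelled CASP8 IEC-KO Mlkl-/- and from 46 to 48 in CASP8 IEC-KO. Genotype therefore cannot be told apart there from whatever these numbers stand for.

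**Figure D4:**
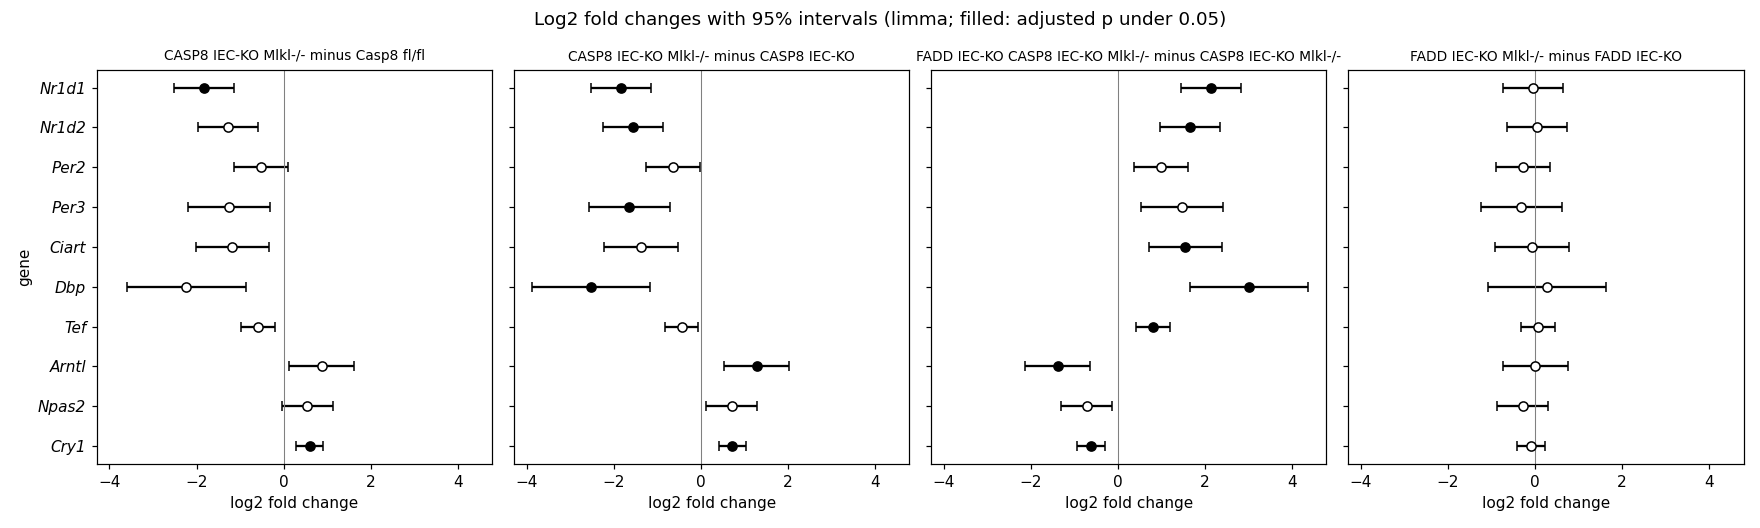
Log2 fold changes (horizontal axes) of the 10 clock genes (vertical axis) in 4 comparisons, with 95% confidence intervals from limma and filled points where the adjusted p was under 0.05. The first 3 comparisons involve mice labelled CASP8 IEC-KO Mlkl-/- and hold 2, 6 and 7 called genes; loss of MLKL in FADD IEC-KO mice, on the right, holds 0.

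The triple mutants differ from mice labelled CASP8 IEC-KO Mlkl-/- by label in the added deletion of FADD, and use those same mice as the reference; their Mlkl level was lower by 1.29 ± 0.195 as well (adjusted p = 1.54e-04). Their Nr1d1 values were 10.31, 9.77, 10.02, 10.08 and 9.93, their Dbp values 10.48, 10.60, 10.44, 9.69 and 10.34, and their Arntl values 8.07, 7.58, 8.09, 8.60 and 7.28. All 10 clock genes were separated between the 2 groups, whereas 6.93% of all genes were. Of the 10, 7 were called, 5 higher and 2 lower (3.10% of all genes were called, 2.04% higher and 1.07% lower). Dbp rose by 3.02 ± 0.67, an 8.09-fold higher intensity (adjusted p = 0.00715), Nr1d1 by 2.14 ± 0.34 (3.42e-04), Nr1d2 by 1.65 ± 0.34 (0.00418), Ciart by 1.55 ± 0.42 (0.0274) and Tef by 0.80 ± 0.19 (0.0123). Arntl fell by 1.38 ± 0.37 (0.0270) and Cry1 by 0.62 ± 0.16 (0.0182). Per2, Per3 and Npas2 did not pass (0.98 ± 0.31, 1.47 ± 0.46 and -0.71 ± 0.29). All triple mutants were numbered 200 and over and 4 of the 5 mice labelled CASP8 IEC-KO Mlkl-/- under 100, so the only comparison within a series sets 5 mice against 1, with a Dbp difference of 3.83. With the series as a covariate 4 of the 10 genes were called, and 164 of all genes. Without triple mutant replicate 2 the counts were 4 and 444, and without CASP8 IEC-KO Mlkl-/- replicate 2 they were 4 and 393. With all mice and no covariate 605 of all genes were called. Ciart, Arntl or Cry1 lost its call when any single mouse other than triple mutant replicate 4 was left out, while Dbp, Tef, Nr1d1 and Nr1d2 kept theirs throughout.

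In the other 11 comparisons limma called 0 of the 10 clock genes. Between FADD IEC-KO and Fadd fl/fl 3.73% of all genes were called, and between CASP8 IEC-KO and Casp8 fl/fl 4.17%. For Dbp the changes were -0.45 ± 0.67 and 0.28 ± 0.67, and for Arntl -0.38 ± 0.37 and -0.41 ± 0.37, all within the spread between mice. The 95% interval for Dbp ran from -1.81 to 0.91 after FADD loss and from -1.08 to 1.64 after CASP8 loss, and it ran from -1.09 to 1.63 after MLKL loss in FADD IEC-KO mice. Relative to FADD IEC-KO, 1.61% of all genes were called after loss of MLKL, 3.32% after loss of ZBP1 and 1.55% after epithelial loss of RIPK3. Relative to Fadd fl/fl the shares were 10.5% for FADD IEC-KO Mlkl-/-, 11.9% for FADD IEC-KO Zbp1-/- and 1.23% for FADD IEC-KO RIPK3 IEC-KO. For the triple mutants they were 7.86% against FADD IEC-KO Mlkl-/- and 3.69% against both floxed groups together, and between the floxed groups the share was 0.00513%. At an unadjusted p under 0.05, 3 of the 10 genes passed in each of the comparisons of FADD IEC-KO RIPK3 IEC-KO with FADD IEC-KO (14.2% of all genes), of the same mice with Fadd fl/fl (13.9%), and of triple mutants with FADD IEC-KO Mlkl-/- (21.6%). None of the 10 passed in the other 8, where 8.38% to 25.2% of all genes did. Between FADD IEC-KO RIPK3 IEC-KO and FADD IEC-KO, Tef differed by 0.54 ± 0.19 (adjusted p = 0.157), Dbp by 1.52 ± 0.67 (0.280) and Ciart by 0.97 ± 0.42 (0.263). Among mice numbered under 100 (3 against 4) this Dbp difference was 0.72. It was 4.09 among those numbered 200 and over (2 against 1). Relative to Fadd fl/fl, the clock index of FADD IEC-KO RIPK3 IEC-KO mice differed by -0.02 under 100 (3 against 2). At 200 and over (2 against 3) it differed by 2.23.

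Whether MLKL loss, as labelled, acted differently without CASP8 than without FADD was tested as an interaction, which called 0 of the 10 genes and 0.0564% of all genes, with 8 of the 10 and 6.30% of all genes at an unadjusted p under 0.05. The difference of the 2 changes was -1.78 ± 0.48 for Nr1d1 and 0.82 ± 0.22 for Cry1 (adjusted p = 0.229 for both), and -2.79 ± 0.95 for Dbp (0.473). It is therefore not shown that the 2 effects of MLKL loss differ. The interaction of FADD loss with CASP8 loss called 0 of the 10 genes and 0% of all genes, and 0 of the 10, beside 6.52% of all genes, had an unadjusted p under 0.05.

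Of 20 further clock and clock-linked genes, 17 were measured. Between mice labelled CASP8 IEC-KO Mlkl-/- and CASP8 IEC-KO 1 fell and 0 rose, where 1.19% of all genes were lower and 1.59% higher: Bhlhe40 (DEC1), an E-box repressor, by 0.53 ± 0.13 (adjusted p = 0.0147). Against Casp8 fl/fl 0 of the 17 were called (1.09% of all genes), with 7 at an unadjusted p under 0.05, as were 11.8% of all genes. In the triple mutants relative to mice labelled CASP8 IEC-KO Mlkl-/-, Per1, a period gene that glucocorticoids also induce, rose by 0.80 ± 0.19 (0.0136) and Bhlhe40 by 0.55 ± 0.13 (0.0120), 2 of 17 higher and 0 lower (2.04% and 1.07% of all genes). The median change of the 17 was -0.10, -0.17 and 0.13 in these 3 comparisons. The list holds genes that followed the clock index in either direction, such as Usp2 (r = 0.87) and Nfil3 (r = -0.82), so signed changes partly cancel. Their median absolute change was 0.15, 0.30 and 0.24, beside 0.10, 0.11 and 0.11 over all genes. Clock itself, the partner of ARNTL whose transcript cycles little, had group means of 10.13 to 10.45.

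Among 19 measured genes of 20 known to follow the clock in gut or liver, 1 rose and 3 fell between mice labelled CASP8 IEC-KO Mlkl-/- and CASP8 IEC-KO (1.59% and 1.19% of all genes). Nampt, which makes NAD from nicotinamide, rose by 0.60 ± 0.13 (adjusted p = 0.00354), while Coq10b fell by 0.68 ± 0.18 (0.0262), Noct, the night-time phosphatase nocturnin, by 0.61 ± 0.14 (0.00497) and Klf10 by 0.44 ± 0.12 (0.0358). With group means removed, their r with the clock index was -0.01 for Nampt, 0.48 for Coq10b, 0.20 for Noct and -0.09 for Klf10. Nampt was also higher against Casp8 fl/fl (0.69 ± 0.13, 9.29e-04), as 1 of the 19 (0.775% of all genes higher). Its mean was 9.47 in mice labelled CASP8 IEC-KO Mlkl-/-, 9.27 in FADD IEC-KO Mlkl-/- and 9.28 in triple mutants. In the remaining groups it was 8.77 to 9.07. In triple mutants against mice labelled CASP8 IEC-KO Mlkl-/-, Tspan4 rose by 0.61 ± 0.16 (0.0251) and the glucose carrier Slc5a1 by 0.45 ± 0.12 (0.0257), 2 of 19 higher and 0 lower (2.04% and 1.07% of all genes). Of 9 genes induced by glucocorticoids, which carry timing signals between organs, 1 fell between mice labelled CASP8 IEC-KO Mlkl-/- and CASP8 IEC-KO (1.19% of all genes): Errfi1 by 0.87 ± 0.22 (0.0143). Against Casp8 fl/fl limma called 0 of the 9 (1.09% of all genes). At an unadjusted p under 0.05 were 1 of the 9 and 11.8% of all genes. In the triple mutants against mice labelled CASP8 IEC-KO Mlkl-/- 1 rose (2.04% of all genes), which was Per1, listed here too.

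The same lists also held called genes in comparisons without a called clock gene. Relative to Fadd fl/fl, FADD IEC-KO Mlkl-/- mice had 3 of 9 glucocorticoid genes lower, 1 of 17 further clock genes lower, and 1 higher and 2 lower of 19 output genes, where 10.5% of all genes were called. The changes of largest size were in the kinase Sgk1 (-1.49 ± 0.26, adjusted p = 2.09e-04), Tsc22d3 (-0.84 ± 0.19, 0.00290), which encodes the glucocorticoid-induced leucine zipper, the zinc finger gene Zbtb16 (-0.74 ± 0.21, 0.0171) and Pdk4 (-0.56 ± 0.18, 0.0422). Against those FADD IEC-KO Mlkl-/- mice, triple mutants had 2 of the 9, 1 of the 17 and 5 of the 19 higher and 0 lower (7.86% of all genes were called). Among them Sgk1 rose by 1.23 ± 0.26 (0.00244), Tsc22d3 by 0.996 ± 0.19 (8.68e-04), the peptide carrier Slc15a1 by 0.70 ± 0.18 (0.0105) and Cry2, a cryptochrome, by 0.66 ± 0.18 (0.0171). These 2 comparisons share the FADD IEC-KO Mlkl-/- mice.

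FADD IEC-KO Zbp1-/- mice had 1 glucocorticoid gene higher and 1 lower, 3 further clock genes lower, and 1 output gene higher and 3 lower relative to Fadd fl/fl (11.9% of all genes were called). The chaperone Fkbp5 rose by 0.66 ± 0.17 (0.00850) and Noct by 0.51 ± 0.14 (0.0103), while Tsc22d3 fell by 0.59 ± 0.19 (0.0357) and Klf9 by 0.47 ± 0.13 (0.0150). Relative to FADD IEC-KO, 2 further clock genes fell in these mice (3.32% of all genes were called), Timeless by 0.47 ± 0.12 (0.0275) and the casein kinase Csnk1d by 0.36 ± 0.07 (0.00237). Timeless was higher by 0.51 ± 0.12 (0.0154) in FADD IEC-KO than in Fadd fl/fl, as was the output gene Ccne1, cyclin E1, by 0.41 ± 0.12 (0.0483), 1 of each list (3.73%). In CASP8 IEC-KO against Casp8 fl/fl the 1 further clock gene called was Tipin, which binds TIMELESS (0.69 ± 0.15, 0.00472), and the 1 output gene was Alas1, an enzyme of haem synthesis (0.56 ± 0.14, 0.0142), both higher (4.17%). Triple mutants against both floxed groups had 2 output genes higher, the sodium-proton exchanger Slc9a3 by 0.78 ± 0.23 (0.0482) and Nampt by 0.49 ± 0.11 (0.00825), and 1 further clock gene lower, Clock by 0.25 ± 0.07 (0.0238), with 3.69% of all genes called. In the other 4 comparisons and both interactions limma called 0 genes of the 3 lists, with 0 to 7 of a list and 6.30% to 14.2% of all genes at an unadjusted p under 0.05.

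The genes outside the 10 whose levels most followed the clock index, with group means removed and over the 45 mice, included further clock genes and carriers of the intestinal brush border. The 8 highest were the kinase Tesk2 (r = 0.90), the fructose transporter Slc2a5 (0.89), the deubiquitinase Usp2 (0.87), Smim24 (0.86), Tns4 (0.85), Cipc, which binds CLOCK (0.84), Slc5a1 (0.84) and Pacsin2 (0.84). The 8 lowest were Cdcp1 (-0.84), Tmem252 (-0.83), Rnf125 (-0.83), Nfil3, a repressor that competes for D-boxes (-0.82), Sema6d (-0.80), Nop10 (-0.78), E2f2 (-0.77) and Fermt1 (-0.77). Over all 19484 other genes the median absolute r was 0.17, and 108 had an r of 0.6 or more and 140 an r of -0.6 or less. Slc2a5 ranged from 6.15 to 9.58 over the mice and averaged 6.74 in mice labelled CASP8 IEC-KO Mlkl-/-, 8.16 in CASP8 IEC-KO and 9.17 in the triple mutants. Nfil3 averaged 7.87, 6.86 and 6.87 in the same groups. These r values come from the same arrays as the index and are given without a test.

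**Figure D5:**
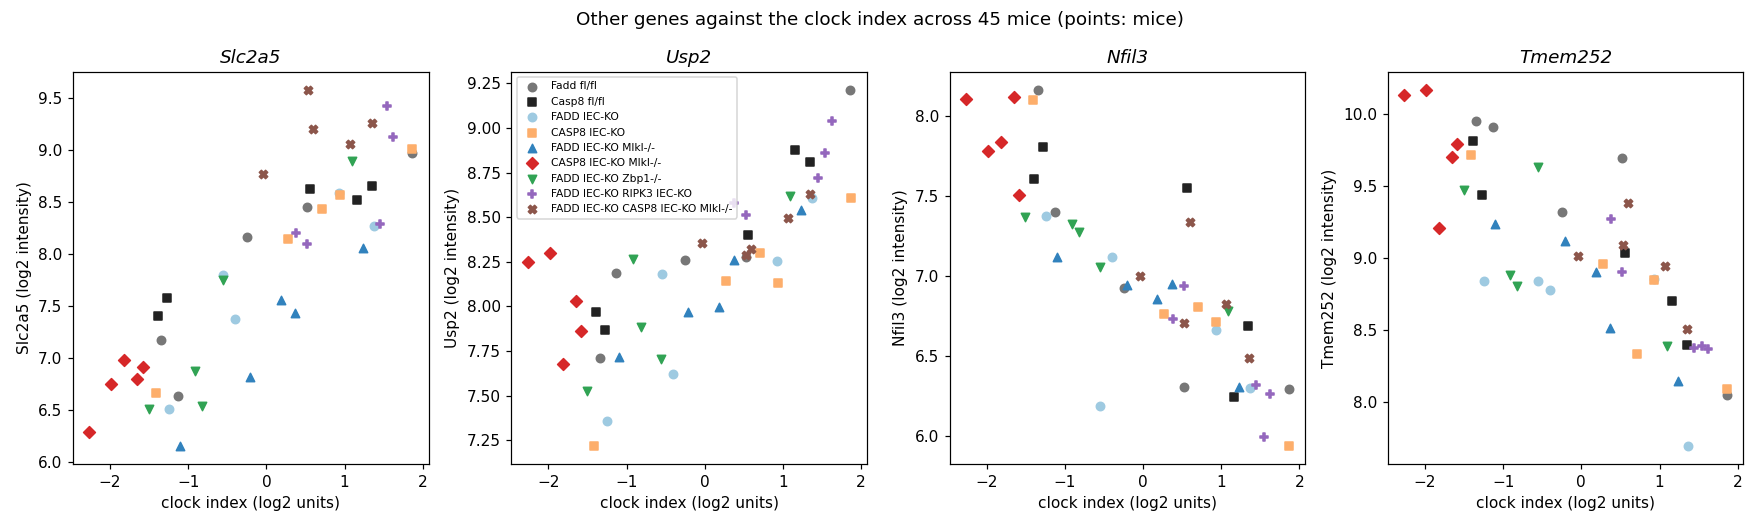
Log2 intensity of 4 genes outside the 10 (vertical axes) against the clock index in log2 units (horizontal axes) in 45 mice, coloured by genotype. Slc2a5 and Usp2 were higher, and Nfil3 and Tmem252 lower, in mice with a higher index, with mice labelled CASP8 IEC-KO Mlkl-/- at its low end.

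Scores of cell type markers (mean log2 level of each list, centred over the mice) were compared with the index within groups. The correlation was 0.53 for 5 enterocyte markers, 0.22 for 5 Paneth cell markers, -0.44 for 4 proliferation genes, -0.24 for 7 general epithelial genes, -0.22 for 5 smooth muscle genes, -0.29 for 3 fibroblast genes and -0.005 for 4 lymphocyte genes. The enterocyte score was -0.07 ± 0.08 (SD, n = 5; range -0.21 to -0.02) in mice labelled CASP8 IEC-KO Mlkl-/-, 0.12 ± 0.15 (-0.13 to 0.24) in CASP8 IEC-KO and 0.01 ± 0.09 (-0.14 to 0.10) in triple mutants. The Paneth score was 0.49 ± 0.33 (-0.05 to 0.84) in mice labelled CASP8 IEC-KO Mlkl-/-, -1.02 ± 1.003 (-2.06 to 0.54) in CASP8 IEC-KO and 0.85 ± 0.21 (0.70 to 1.22) in triple mutants. The general epithelial score stayed within -0.13 and 0.07 in the mice of these 3 groups and of Casp8 fl/fl. The part of cell composition in the clock gene differences was not tested.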

How the data were processed

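Total RNA from whole ileum of 45 mice was hybridised to microarrays, 1 per mouse, after target preparation with a WT PLUS kit, per the labels' protocols. The deposited values are log2 intensities; per the submitters' processing notes, the authors used the tools Transcriptome Analysis Console and Affymetrix Expression Console, and the summarization method is not given in the sources used here. Of 22142 probes, 19527 had 1 gene symbol and 2615 none; per symbol the probe of highest mean was used, leaving 19494 genes. Groups followed the titles. limma 3.58.1 in R 4.3.3 fitted 1 mean per group to all 45 arrays (36 residual degrees of freedom), and 14 comparisons and 2 interactions were tested with eBayes, two-sided. P-values were adjusted by Benjamini-Hochberg over all genes within each comparison, with calls at 0.05. They set each difference between groups against the spread between mice within groups, and the number of mice limits the precision. That spread was pooled over the 9 groups, although it differed between them: the SD of Arntl ran from 0.08 to 0.81. The labels do not give the hour of collection, so its part in the differences between groups was not tested. Several comparisons share the same mice. The fit was tested on simulated data.

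The clock genes and all lists were chosen with earlier results of these data known. Besides the 10 genes, listed genes called in a comparison were named, the 4 of largest change where more were called, with 2 more between CASP8 IEC-KO Mlkl-/- and CASP8 IEC-KO, as were the 8 genes with the highest and the 8 with the lowest correlation to the clock index, and the targeted genes. Alternatives were the groups compared alone, the title series as a covariate, quantile and median normalization, array weights, a filter on dim genes, the mean of probes, and leaving out each mouse. Pairing was not possible, since the titles share no numbers.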

Additional observations from a re-analysis of the deposited data

Results flagged for a closer look

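Each of the 10 genes and the index was examined for a mouse far from the other 4 of its group, 99 group and measure combinations in all, of which chance flags about 1 in 20; 6 were flagged. Triple mutant replicate 4 was low in Dbp, at 9.69 where the others had 10.34 to 10.60, and in Nr1d2, at 8.55 where the others had 8.91 to 9.02. CASP8 IEC-KO replicate 2 was low in Nr1d1, at 8.62 where the others had 9.74 to 10.18, and high in Cry1, at 7.60 where the others had 6.59 to 6.84. Npas2 in Fadd fl/fl replicate 1 was low, at 7.29 against 8.19 to 8.45 in the others. Cry1 in FADD IEC-KO Zbp1-/- replicate 1 was low, at 6.97 against 7.20 to 7.26. The clock index of these mice was -0.04 in the triple mutant and -1.41 in the CASP8 IEC-KO mouse, the lowest of their groups, and 1.86 and 1.09 in the Fadd fl/fl and FADD IEC-KO Zbp1-/- mice, the highest of theirs.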

How the results depend on the processing

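Of 15 gene calls in the 3 comparisons with calls, 7 held under every alternative, 8 held in every fit that left out a mouse, and 0 reversed. A fit of only the groups compared lost Cry1 between mice labelled CASP8 IEC-KO Mlkl-/- and CASP8 IEC-KO (adjusted p = 0.0619), where centring on the median lost Arntl (0.0518). Fitting only the groups compared called 1 of the 10 genes between CASP8 IEC-KO Mlkl-/- and Casp8 fl/fl (2 with all groups) and 1 between triple mutants and FADD IEC-KO Mlkl-/- (0 with all groups). Over all genes these fits called 183 (212 with all groups) and 2098 (1533 with all groups). With array weights 7 were called between CASP8 IEC-KO Mlkl-/- and Casp8 fl/fl, and 3 in the interaction of MLKL loss (0 without weights). Over all genes the weights raised the calls from 212 to 524 and from 11 to 56. With the title series as a covariate 4 were called between triple mutants and CASP8 IEC-KO Mlkl-/- (7 without it). Over all genes the covariate lowered the calls from 605 to 164. Leaving out each mouse in turn gave 3 to 7 called genes between CASP8 IEC-KO Mlkl-/- and CASP8 IEC-KO, 1 to 4 against Casp8 fl/fl, 4 to 7 between triple mutants and CASP8 IEC-KO Mlkl-/-, 0 to 1 in the interaction of MLKL loss (1 without CASP8 IEC-KO replicate 2) and 0 to 1 between FADD IEC-KO RIPK3 IEC-KO and FADD IEC-KO (1 without FADD IEC-KO replicate 4). Over all genes, 10 were called in the interaction of MLKL loss without CASP8 IEC-KO replicate 2 (11 with all mice). Between FADD IEC-KO RIPK3 IEC-KO and FADD IEC-KO, 667 were called without FADD IEC-KO replicate 4 (303 with all mice). The filter on dim genes removed Tef and Ciart. Among mice numbered 200 and over, the median correlation was 0.68 within an arm and -0.61 between arms, and with group means kept it was 0.82 within an arm. The causes of these shifts were not tested. Over all genes, the count between CASP8 IEC-KO and Casp8 fl/fl ran from 10 to 1354 (813 in the fit of all groups), that between CASP8 IEC-KO Mlkl-/- and CASP8 IEC-KO from 392 to 1083 (541), that against Casp8 fl/fl from 123 to 524 (212), and that between triple mutants and CASP8 IEC-KO Mlkl-/- from 164 to 1479 (605). No paired analysis was possible because the titles of different groups share no numbers.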
